A study of Mus musculus with 4 samples.

Results

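Dystrophin, its membrane partners and its paralog utrophin were followed at the RNA level in tibialis anterior (TA) muscle, a fast muscle of the lower hind limb, from WT and Fgf21 knockout (Fgf21KO) mice. The 8 genes named were Dmd, Utrn, Dag1, Sgca, Sgcb, Sgcd, Sntb1 and Dtna, taken by gene symbol from the table of read counts. Of these, 7 had a row among the 13825 genes of the table, and Sgca (alpha-sarcoglycan) was not analysed here. The 4 groups were TA muscle of adult male WT mice (C57BL/6J by the study's methods) with sham (WS) or denervated (WD) limb, and of adult male mice without Fgf21 in the whole body with sham (KS) or denervated (KD) limb. A piece of the sciatic nerve was cut out of one leg, and both TA muscles were taken 14 days later, so the sham muscle came from the opposite leg. The RNA of 4 muscles was pooled into 1 library per group, so nothing here repeats a group, and the intervals given on differences between 2 groups cover counting error only. The study sequenced these muscles to ask how loss of Fgf21, a secreted growth factor, alters the response of muscle to denervation.

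In muscle fibres, dystrophin ties the actin cytoskeleton to the membrane protein dystroglycan, which in turn holds laminin in the basement membrane, and the sarcoglycans brace this link within the membrane. Syntrophins and dystrobrevins bind the tail of dystrophin on the inner side and carry signalling proteins. Utrophin, encoded by a separate gene, can take the place of dystrophin, and in adult fibres it is concentrated at the neuromuscular junction (NMJ), where alpha-dystrobrevin and beta1-syntrophin are also found.

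The upstream sequences of Dmd, whose RNA rose with denervation, and of Dag1, whose RNA fell, are shown because their start sites alone had a window of 250 bases that lay clear of the annotated gene. Both run 5′ to 3′ up to the base before the RefSeq start site (build GRCm38.p6), at chrX:82948620-82948869 on the + strand for Dmd and chr9:108263959-108264208 on the - strand for Dag1. Capitals mark matches to CANNTG, the E-box that myogenic factors bind, which reads the same on both strands.
Dmd: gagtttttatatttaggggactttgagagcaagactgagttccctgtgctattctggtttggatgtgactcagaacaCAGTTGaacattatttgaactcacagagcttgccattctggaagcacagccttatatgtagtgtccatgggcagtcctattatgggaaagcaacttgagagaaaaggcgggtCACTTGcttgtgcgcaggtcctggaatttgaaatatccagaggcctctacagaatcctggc
Dag1: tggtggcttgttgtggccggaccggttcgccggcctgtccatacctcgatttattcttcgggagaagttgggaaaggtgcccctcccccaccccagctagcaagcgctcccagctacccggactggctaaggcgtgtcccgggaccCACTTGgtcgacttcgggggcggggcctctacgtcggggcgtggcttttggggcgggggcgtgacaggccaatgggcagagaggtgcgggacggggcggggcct
Dmd held 2 E-boxes, starting 173 and 61 bases before the start site, and Dag1 held 1, starting 104 bases before it. Among 32851 RefSeq windows of this length, 66.2% held at least 1 E-box, so a match was common. Neither window held TTCCGG on either strand, the N-box known from synaptic genes, which 12% of all windows held. Of the 7 genes, 5 had an entry in the promoter table (Dmd, Utrn, Dag1, Sgcb and Sgcd). The window of Utrn lay inside the gene, where 4 longer annotated transcripts run across it.

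Total counts over the genes analysed ranged from 25249879 to 34141303, and 13084 genes were compared, those whose mean count reached 10, all 7 genes of the complex included. Levels are given as CPM, the count scaled to a common library total with TMM factors. The share of counts from 15 mitochondrially encoded genes was 27.3% in WS and 19.6% in WD, with 30.8% in KS and 20.8% in KD, so it was lower in both denervated libraries. The genotype labels could not be checked on Fgf21 itself, which was not analysed here. The fast-fibre genes Tnni2, Myh1 and Mylpf were the 3 of 10 fibre markers analysed here, with a summed level between 25473 and 41908 CPM, the highest sums of any marker list here.

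Denervation changed the RNA of 5 of the 7 genes, and did so in both directions. Dmd, Sntb1 and Dtna rose, Dag1 and Sgcd fell, and Utrn and Sgcb did not pass the test. The test was an additive model of surgery and genotype fitted to all 4 libraries (quasi-likelihood test of edgeR, adjusted over all 13084 genes). Its only measure of spread is how unequally the genotypes responded, with 1 residual degree of freedom for each gene. That spread is moderated by edgeR towards the trend over all genes, so the p-values rest largely on spread shared between genes. At an adjusted p below 0.05, that model called 53.5% of all genes (26.6% higher and 27% lower), and DESeq2's Wald test called 4 of the 7. None of the 7 also reached a 2-fold change, which 13.1% of all genes did. The median denervation log2 fold change was 0.06 over the 7 genes and 0.01 over all genes. In bulk muscle, fewer cells of a type and less RNA per cell cannot be told apart.

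**Figure D1:**
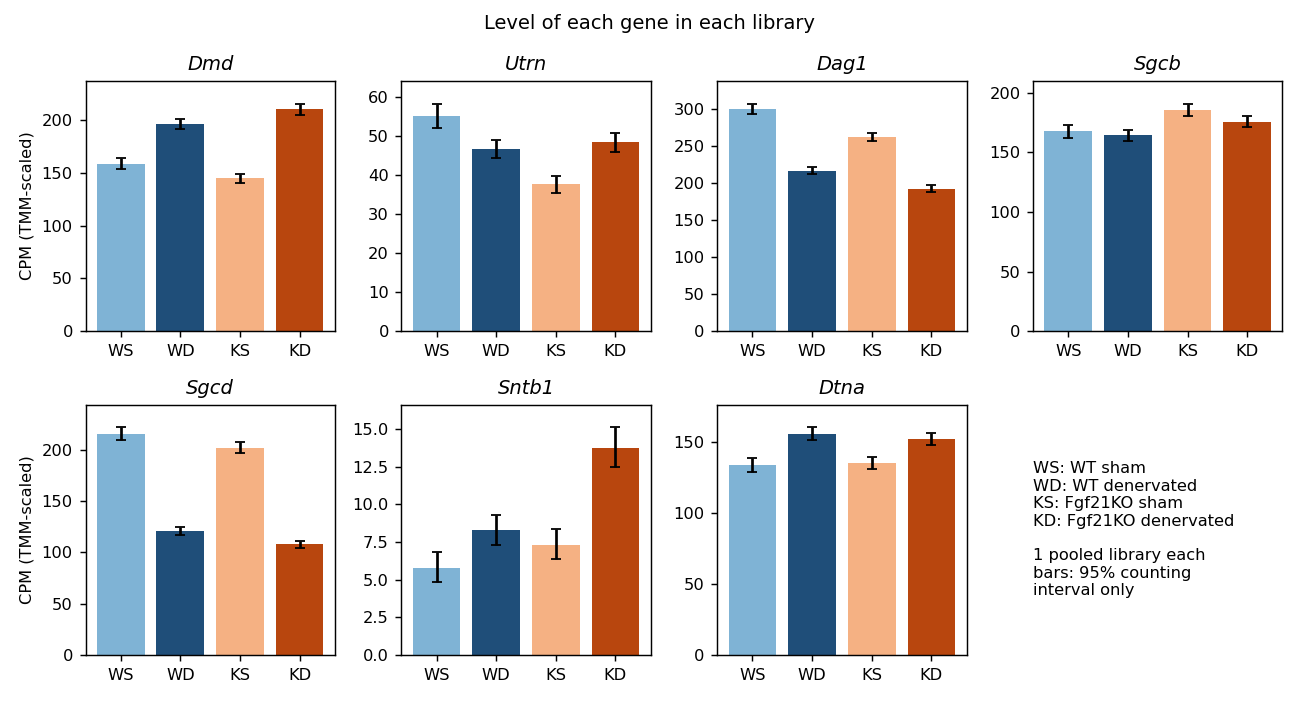
Level of each of the 7 genes in TMM-scaled CPM (vertical axis from 0) in the 4 libraries WS, WD, KS and KD, with error bars that are 95% counting intervals and leave out the spread between mice. Dmd is higher and Dag1 and Sgcd are lower in both denervated libraries, and Utrn is highest in WS and lowest in KS.

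Dmd encodes dystrophin itself. Its level was 159 CPM in WS and 196 in WD, with 145 in KS and 210.4 in KD, from 3689, 6402, 4310 and 6510 counts. Both denervated libraries were above both sham libraries. The log2 ratio of denervated to sham was 0.30 in WT (95% counting interval 0.25 to 0.36) and 0.54 in Fgf21KO (0.48 to 0.59). Over the 4 libraries the denervation log2 fold change was 0.42 ± 0.074 (SE, adjusted p = 1.88e-05).

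Sntb1 encodes beta1-syntrophin, an adaptor on the inner side of the complex, and was by far the lowest of the 7 genes in counts. It stood at 5.77 CPM in WS and 8.27 in WD, with 7.31 in KS and 13.7 in KD, from 134, 270, 217 and 425 counts. The denervated library was the higher of the pair in each genotype, and KD stood above the other 3. Its log2 ratio was 0.51 in WT (0.22 to 0.83) and 0.90 in Fgf21KO (0.67 to 1.15), and the interval of the latter reached past 2-fold. The denervation log2 fold change was 0.73 ± 0.154 (SE, adjusted p = 0.000203), the highest of the 7.

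Dtna encodes alpha-dystrobrevin, the main muscle partner of dystrophin and syntrophins. Its level was 134 CPM in WS and 156 in WD, with 135 in KS and 152 in KD. The sham libraries lay close together, as did the denervated ones, with log2 ratios of 0.22 (0.16 to 0.29) in WT and 0.17 (0.11 to 0.23) in Fgf21KO. This small rise (log2 fold change 0.19 ± 0.071, SE, adjusted p = 0.0224) was the one of the 5 that the Wald test did not call (adjusted p = 0.119). Exons of Dtna overlap those of an antisense gene, Gm47898, which was not analysed here, and whether strand was used in counting is not stated.

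Dag1 encodes the precursor of alpha- and beta-dystroglycan, the laminin receptor of the complex. It measured 299.7 CPM in WS and 217 in WD, with 262 in KS and 192 in KD. Each denervated library was below each sham library, and the log2 ratio was -0.47 in WT (-0.52 to -0.42) and -0.45 in Fgf21KO (-0.50 to -0.40). Across the 4 libraries the log2 fold change was -0.46 ± 0.070 (SE, adjusted p = 2.44e-06). With scaling to total counts alone it was -0.14 (adjusted p = 0.0694), and under that scaling the median log2 ratio of all genes moved to 0.29 in WT and 0.36 in Fgf21KO muscle.

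Sgcb and Sgcd encode beta- and delta-sarcoglycan, which form the core of the sarcoglycan subcomplex. Their RNAs did not move together. Sgcd was at 216 CPM in WS and 121 in WD, with 202 in KS and 108 in KD, with the sham libraries well above the denervated ones. Its log2 ratio was -0.84 in WT (-0.90 to -0.78) and -0.91 in Fgf21KO (-0.97 to -0.84), and its log2 fold change of -0.87 ± 0.071 (SE, adjusted p = 2.08e-11) was the largest of the 7 in size. Sgcb stood at 168, 164, 186 and 176 CPM in the same order, and its log2 fold change was -0.06 ± 0.070 (SE, adjusted p = 0.527). The denervated library was the lower of each pair by a small margin, with a log2 ratio of -0.03 in WT (-0.09 to 0.03) and -0.08 in Fgf21KO (-0.14 to -0.03). This sign turned with the scaling, since total counts alone gave Sgcb a log2 fold change of 0.27 (adjusted p = 0.00295). The count ratio of Sgcd to Sgcb, which needs no scaling between libraries, was 1.29 in WS and 1.09 in KS, against 0.737 in WD and 0.614 in KD.

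Utrn was the only one of the 7 genes whose denervation ratios took opposite signs in the genotypes. Its level was 55.0 CPM in WS and 46.5 in WD, with 37.5 in KS and 48.3 in KD, from 1279, 1519, 1115 and 1493 counts. The sham libraries were the extremes, and the denervated libraries lay between them. Denervated over sham gave a log2 ratio of -0.24 in WT (-0.35 to -0.13) and 0.36 in Fgf21KO (0.25 to 0.48). Over the 4 libraries the log2 fold change was 0.06 ± 0.10 (SE, adjusted p = 0.653). With total counts alone the WT ratio was 0.04 and the fold change 0.38 (adjusted p = 0.0263), and the ratios of the genotypes then had the same sign.

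**Figure D2:**
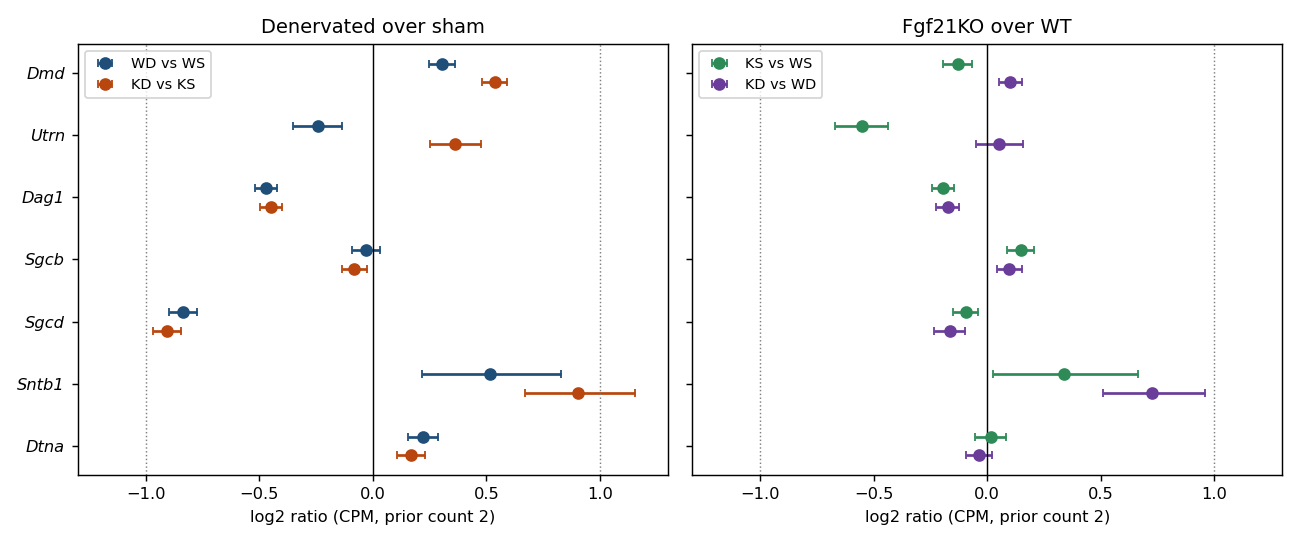
Log2 ratios of CPM (horizontal axis, prior count of 2) for the 7 genes, denervated over sham on the left and Fgf21KO over WT on the right, with bars that are 95% counting intervals only and dotted lines at 2-fold. No point reaches a dotted line, and Utrn is the gene whose points lie farthest apart. For each gene that gap is the same in both panels by construction.

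In neither denervation comparison was any of the 7 genes 2-fold apart, which 14.8% of all genes were in WT muscle and 13.6% in Fgf21KO muscle. Among all genes, 940 were 2-fold higher and 996 lower after denervation in WT, and 982 higher and 798 lower in Fgf21KO. With total counts alone, the same counts were 1633 and 486, then 1948 and 342, so the balance of directions depended on the scaling. The median size of the log2 ratio was 0.304 over the 7 genes against 0.398 over all genes in WT, and 0.448 against 0.391 in Fgf21KO.

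The comparison of Fgf21KO with WT asked how these genes differed between the genotypes. The genotypes are different mice in separate pools, so loss of Fgf21 cannot be told apart from other differences between those mice. No gene of the 7 passed the test for genotype over the 4 libraries, which 0.673% of all genes did, and 0.176% with a 2-fold change as well. At an unadjusted p below 0.05 there were 3 of 7 (Sntb1, Utrn and Dag1), where 7.93% of all genes were, and DESeq2's Wald test called 0. Nor was any of the 7 genes 2-fold apart in KS vs WS or KD vs WD, as were 2.04% and 1.55% of all genes. The median size of the log2 ratio of the 7 genes was 0.148 in sham and 0.102 in denervated muscle, against 0.149 and 0.112 over all genes.

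Sntb1 had the largest genotype estimate, a log2 fold change of 0.56 ± 0.154 (SE, unadjusted p = 0.00109, adjusted p = 0.106). It was higher in Fgf21KO in both pairs, with a log2 ratio of 0.34 in sham (0.02 to 0.66) and 0.73 in denervated muscle (0.51 to 0.96), and 1.97% of all genes were at least that much higher in KD vs WD. Dag1 was slightly lower in Fgf21KO in both pairs, at -0.19 in sham (-0.24 to -0.15) and -0.17 in denervated muscle (-0.22 to -0.12), with a log2 fold change of -0.18 (unadjusted p = 0.0138, adjusted p = 0.396). For Utrn the log2 fold change was -0.24 ± 0.10 (SE, unadjusted p = 0.0220, adjusted p = 0.471). That estimate averaged a low KS library, at -0.55 in KS vs WS (-0.67 to -0.44), and near equality after denervation, at 0.05 in KD vs WD (-0.05 to 0.16). The other 4 genes had genotype log2 fold changes from -0.13 (Sgcd) to 0.12 (Sgcb).

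Whether the genotypes responded unequally to denervation could not be tested, because the model that holds this term leaves no residual degree of freedom. As a description, the log2 ratio in Fgf21KO minus that in WT was 0.60 for Utrn (0.45 to 0.76), 0.39 for Sntb1 (0.01 to 0.77) and 0.23 for Dmd (0.15 to 0.31). For Dag1, Sgcb, Sgcd and Dtna it ran from -0.07 to 0.02, and each counting interval included 0. A difference of the size of that of Utrn, in either direction, was found in 11.3% of all genes, many of them with few counts. A limit of 1000 on the mean count, chosen after the values were seen and passed by Utrn, left 3853 genes, of which 17, or 0.441%, held such a difference. A difference as large as that of Sntb1 was found in 21.8% of all genes. Opposite signs of the 2 ratios, however small, were found in 17.2% of all genes. The KS library enters the Utrn difference, and its ratio to WS was matched in size by 8.67% of all genes and by 23 of the 3853 with high counts (0.597%).

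**Figure D3:**
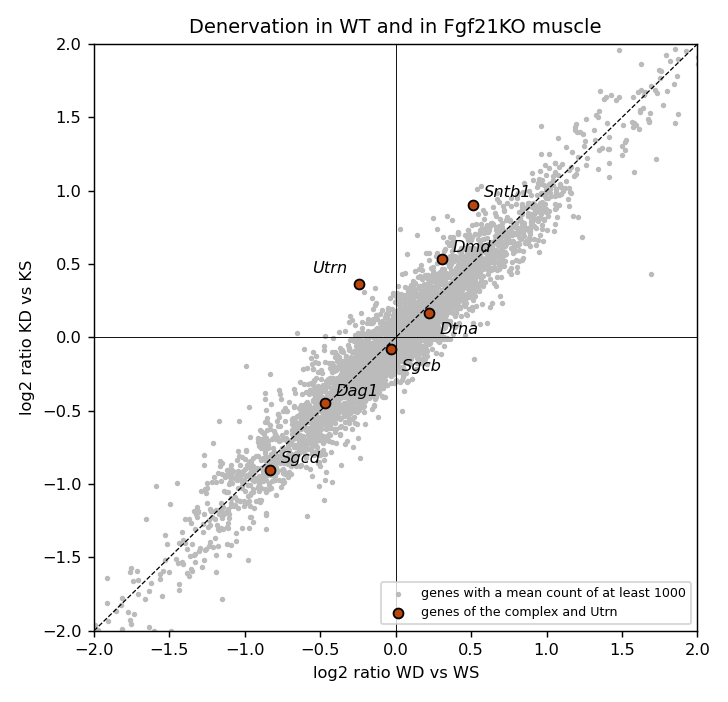
Log2 ratio of denervated to sham in WT (horizontal axis) against the same in Fgf21KO (vertical axis), with 1 grey point for each gene whose mean count reached 1000 and the 7 genes in orange, of which only Sntb1 is below that mean count. The dashed line marks equal ratios, and Utrn, at -0.24 and 0.36, lies above the band of grey points.

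Utrn and Dmd are paralogs, so their counts were also set against each other within each library, a comparison that does not depend on scaling between libraries. Dmd had 2.88 counts for each Utrn count in WS (95% counting interval 2.71 to 3.07), 4.21 in WD (3.99 to 4.46), 3.87 in KS (3.62 to 4.13) and 4.36 in KD (4.12 to 4.61). The WS library stood apart from the other 3, whose ratios were closer to one another. Per kilobase of exon the ratio was 2.07, 3.03, 2.78 and 3.13 in the same order, and it was above 1 in all 4 libraries with the longest transcript as the length too (2.40, 3.50, 3.21 and 3.62).

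The genes with the pattern over the 4 libraries most like that of Dmd were Snrpf, a core splicing protein, Arhgef40 and Tiprl, at distances of 0.029 to 0.033 (Euclidean distance of mean-centred log2 CPM, among genes whose mean count reached 100). Such a pattern was common, as 131 genes lay within 0.1 of Dmd. Those nearest to Utrn were Fgd6, Rab43 and Lipa, which encodes lysosomal acid lipase, at 0.036 to 0.073. Only 7 genes lay within 0.1 of Utrn. Fgd6, with 148, 175, 127 and 167 counts in WS, WD, KS and KD, had denervation log2 ratios of -0.25 in WT and 0.33 in Fgf21KO.

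Levels of different genes were compared per kilobase of the exons annotated in GENCODE M21. In WS, Dag1 stood at 47.1 CPM per kilobase, Sgcb at 41.4, Sgcd at 26.1, Dtna at 7.91, Dmd at 6.67, Utrn at 3.22 and Sntb1 at 1.08. On this length the membrane proteins among these genes were above the cytoplasmic ones. Sgce, a further sarcoglycan of the complex, was below all of them, at 0.479 CPM per kilobase in WS. In WD, KS and KD, Sgcb stood above Dag1, at 40.5, 45.8 and 43.3 CPM per kilobase against 34.1, 41.2 and 30.2. The rest of the order was the same in all 4 libraries. In KD, Dtna (8.98) and Dmd (8.84) did not differ beyond their counting intervals, nor did Utrn (2.82) and Sntb1 (2.58). With the longest transcript as the length, Sgcd was at 48.4 and Sgcb at 44.3 in WS, so their order in that library depended on the length used, and Sgcd and Dtna were both at 24.2 in KD.

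**Figure D4:**
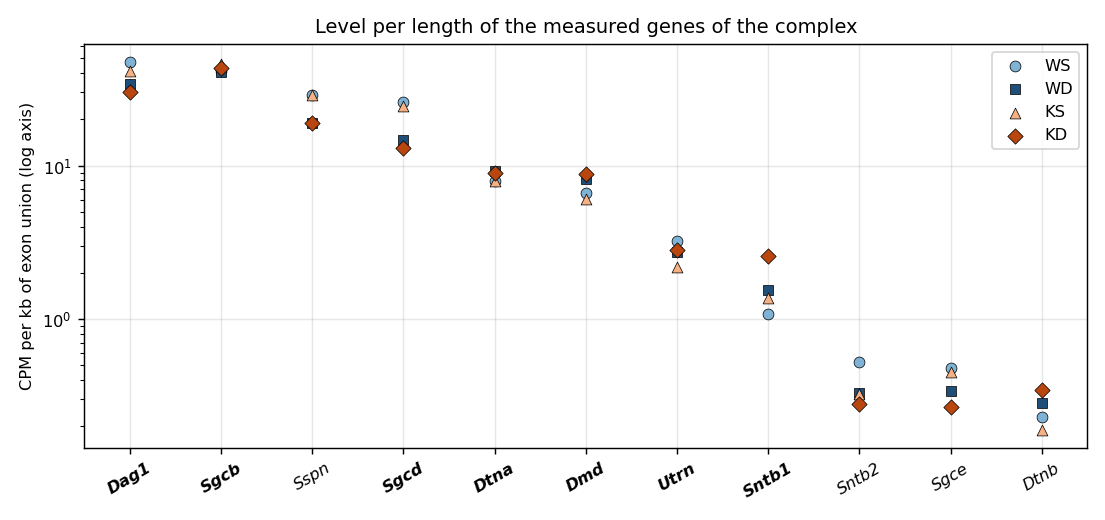
Level per length (CPM per kilobase of exon, log axis) of 11 genes of the complex in the 4 libraries, with the 7 genes described here in bold. Dag1 and Sgcb are the highest, and Sntb2, Sgce and Dtnb are below 1 CPM per kilobase in every library.

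Of 9 further genes of the complex considered here, 4 were measured. Sspn, the tetraspanin-like sarcospan that binds the sarcoglycans, fell, with log2 ratios of -0.60 and -0.61 (log2 fold change -0.61, adjusted p = 3.34e-08). Sgce, epsilon-sarcoglycan, with 88 to 141 counts, fell as well (-0.62, adjusted p = 0.0183), and the Wald test did not call it (adjusted p = 0.168). Sntb2, beta2-syntrophin, at -0.45 (adjusted p = 0.0968), and Dtnb, beta-dystrobrevin, at 0.59 (adjusted p = 0.0677), did not pass. In sum 0 of the 4 rose and 2 fell, with a median log2 fold change of -0.53, and 0 passed for genotype.

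On the matrix side of the complex most genes fell. Of 15 genes for laminin chains, other dystroglycan ligands and collagen VI, 0 rose and 12 fell with denervation, with a median log2 fold change of -0.72 against 0.01 over all genes. Col6a2, a chain of collagen VI, was the 1 gene of the list that also passed 2-fold, at -1.10 (adjusted p = 1.85e-11), with levels of 49.4, 23.1, 46.0 and 21.2 CPM in WS, WD, KS and KD. Lama4, a laminin chain of vessels, followed at -0.98 (adjusted p = 2.41e-08). Lama5 at -0.18 (adjusted p = 0.0545) and Bgn, the proteoglycan biglycan, at -0.02 (adjusted p = 0.863) did not pass. Nor did Agrn, the nerve and muscle proteoglycan agrin, which binds dystroglycan and is named here after its values were seen, at -0.19 (adjusted p = 0.236). Agrn stood at 32.02 CPM in WS and 20.6 in WD, and at 20.03 in KS and 24.0 in KD. Its denervation log2 ratio was -0.64 in WT (-0.79 to -0.49) and 0.26 in Fgf21KO (0.11 to 0.42), so WS was its highest library, and WD and KS were its lowest. Hspg2, the proteoglycan perlecan, which binds alpha-dystroglycan, was the only gene of this list to pass for genotype (log2 fold change -0.37, adjusted p = 0.0301, not called by the Wald test), and it is named here after its values were seen. It was at 317 CPM in WS and 208 in KS, but at 162 in WD and 149 in KD.

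Markers of other cell types also differed between sham and denervated libraries, some in the direction of these matrix genes and some in the opposite one. Summed over 6 endothelial genes the level was 513 CPM in WS and 423 in KS against 230.3 in WD and 227 in KD, and all 6 fell. Over 5 of 6 smooth muscle and pericyte markers it was 704 and 654 in sham against 293 and 292 after denervation, and all 5 fell. Over 8 fibroblast and fibro-adipogenic progenitor markers, of which 5 fell, it was 815 and 781 against 502 and 544. Over 6 macrophage genes, which all rose, it was 26.1 and 27.3 against 61.2 and 60.5. Of Schwann cell markers, 4 of 8 were measured, with sums of 62.8 and 60.4 against 23.0 and 23.5, and 3 fell. Of satellite cell markers, 2 of 5 were measured, with sums of 21.4 and 23.0 against 58.8 and 53.4, and 1, Sdc4, rose. The part of these cells in the results above was not tested. The 3 fibre markers fell too, from 41908 to 25473 CPM in WT and from 40566 to 27722 in Fgf21KO, in the same direction as Dag1 and Sgcd and opposite to Dmd.

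The enzymes that build the laminin-binding sugar chain on dystroglycan did not share a direction. Of 15 genes reported here, 5 rose and 4 fell, with a median log2 fold change of 0.00, and 0 passed for genotype. Rxylt1, a xylosyltransferase of this chain, fell from 30.04 CPM in WS to 18.8 in WD and from 32.0 in KS to 18.2 in KD (log2 fold change -0.75, adjusted p = 3.54e-07). Dolk, dolichol kinase, which supplies the lipid carrier of mannose, fell as well (-0.54, adjusted p = 5.93e-05). Pomt2, which with Pomt1 adds the first mannose to dystroglycan, rose from 11.0 to 16.4 CPM in WT and from 12.4 to 18.04 in Fgf21KO (0.56, adjusted p = 0.000292). Gmppb, which makes GDP-mannose, rose by the quasi-likelihood test (0.59, adjusted p = 0.0162), but not by the Wald test (adjusted p = 0.165).

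Among proteins that join the complex to the contractile apparatus, the integrins and membrane repair, 20 of 27 genes were measured, of which 6 rose and 10 fell, with a median log2 fold change of -0.21. Synm, synemin, an intermediate filament protein that binds dystrophin and desmin, changed most. It fell from 1413 CPM in WS to 339 in WD and from 1234 in KS to 313 in KD (log2 fold change -2.02, adjusted p = 3.29e-19). Capn3, a muscle protease, at -1.22 (adjusted p = 9.77e-14), and Tln2, talin 2, which binds integrins to actin, at -1.04 (adjusted p = 6.94e-13), fell by over 2-fold as well. Tln2 was also the 1 gene of this list that passed for genotype, being lower in Fgf21KO (log2 fold change -0.30, adjusted p = 0.0382, with an adjusted p of 0.487 by the Wald test). Des, desmin, at 0.54 (adjusted p = 3.25e-06), and Itgb1, the integrin beta1 chain, at 0.55 (adjusted p = 1.31e-07), were the highest.

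At the NMJ, where utrophin is concentrated, 7 of 14 listed genes were measured, of which 3 rose and 0 fell, with a median of 0.40, and 0 passed for genotype. These counts hold for the list and not for all genes of the NMJ. Ache, acetylcholinesterase, was not among the listed genes measured, and had denervation log2 ratios of -1.80 in WT and -2.19 in Fgf21KO. It is named here after its values were seen. Chrnb1, the beta subunit of the acetylcholine receptor, rose from 38.1 CPM in WS to 213 in WD and from 36.6 in KS to 230.3 in KD (log2 fold change 2.57, adjusted p = 3.50e-21). Lrp4, the receptor for nerve-derived agrin, rose too (0.66, adjusted p = 2.16e-06). Gabpa and Etv5 encode ETS factors known to act on synaptic genes, and Gabpa on the Utrn promoter. Neither passed, at -0.14 (adjusted p = 0.163) and 0.04 (adjusted p = 0.797). Etv5 had log2 ratios of 0.35 in WT and -0.26 in Fgf21KO, the opposite order to Utrn. With total counts alone the ratios of both genes were positive in both genotypes, and the order stayed opposite.

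**Figure D5:**
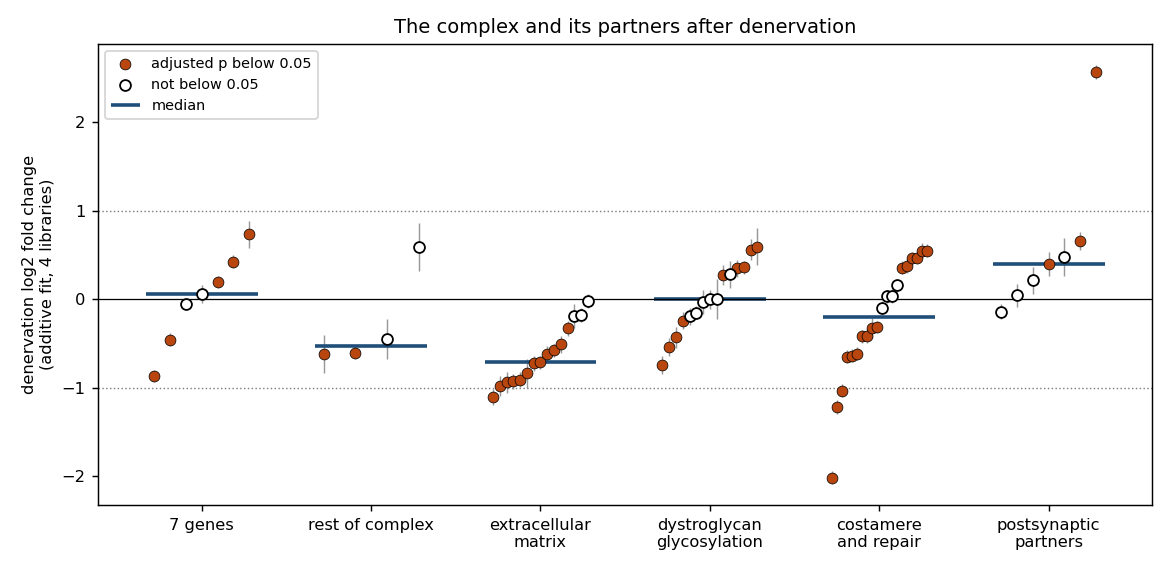
Denervation log2 fold change of each measured gene (vertical axis, additive fit over the 4 libraries, bars of 1 SE) for the 7 genes and 5 lists of partners, with filled points at an adjusted p below 0.05, blue lines at each median and dotted lines at 2-fold. The matrix list lies below 0 throughout, whereas the sugar chain and costamere lists spread to both sides.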

How the data were processed

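RNA of TA muscle was sequenced as 1 pooled library per group (TruSeq stranded mRNA), 4 in all. Raw read counts of each gene were deposited by the authors, beside a further table on a log2 scale that is named for FPKM. The log2 values deposited there were found to be scaled counts, with 1 factor for all genes of a library and 1 added before the log, and so without a correction for length. The submitters' processing notes name GRCm39 and FastQC. The aligner and counter are not given in the sources used here.

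The 13084 genes whose mean count reached 10 were analysed with R 4.3.3, edgeR 4.0.16 (TMM scaling) and Python 3.11.15 with scipy 1.17.1. Pairs of libraries were compared by log2 CPM (prior count 2) with exact 95% binomial intervals, and intervals of single levels were exact Poisson intervals. Both cover counting error only, since each group is 1 pooled library. Reads without molecular identifiers are not independent molecules, so the intervals may be too narrow even for that error. Effects over the 4 libraries came from the quasi-likelihood test of an additive model, with Benjamini-Hochberg adjustment. Its common biological coefficient of variation was 0.0681. Since nothing but the 4 pools varies, its p-values rest on the spread between these libraries, moderated over genes. "Rose" and "fell" mean an adjusted p below 0.05, and the study's further criterion of a 2-fold change is given apart.

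The study's design text gives a nerve piece of 2 mm and an unoperated right leg, while its methods give a longer segment and a sham operation. The genes, lists, tests and the rule for named genes were chosen with earlier results of these data known. Named were the 7 genes, all other measured genes of the complex, and in each further list the genes past both thresholds and the 2 highest and 2 lowest. Cell type markers are given as sums. A few results of this rule are left out of the text, and the counts, medians and figures of the lists leave out the same genes.

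Lengths came from GENCODE M21 (GRCm38) and upstream sequences from RefSeq (GRCm38.p6). Alternatives were DESeq2 1.42.0 (size factors, Wald test), total counts with and without 15 mitochondrially encoded genes, and the deposited log2 values. Mitochondrial tRNA genes were not among these 15 and stayed in the total. Further alternatives were prior counts of 5 and 0.125, a minimum mean count of 50 or none, no fold threshold and other lengths. In simulated data with 200 of 13084 genes changed 3-fold by denervation, the model recovered 98.2% over 5 draws with at most 1 false call per draw. Each of the 7 genes of the complex changed by less than 3-fold, and 7003 genes passed for denervation in the real data. The simulation therefore cannot show how reliable the calls of these 7 genes are.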

Additional observations from a re-analysis of the deposited data

Results flagged for a closer look

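Of 68 genes of the complex and its partner lists, 8 had a log2 ratio of denervated to sham with opposite signs in WT and Fgf21KO muscle, which 17.2% of all genes tested had. For 6 of them the counting interval of the difference excluded 0, and the difference itself was not tested. Such intervals are narrow for genes with many counts, and the share of all genes whose interval excluded 0 was not computed. With total counts alone the WT ratio of Utrn was 0.04, and its signs were no longer opposite. The ratio in Fgf21KO minus that in WT was 0.90 for Agrn (0.68 to 1.12), 0.60 for Utrn and 0.17 for Bgn. It was -0.61 for Etv5, -0.45 for Pomk, a kinase of the dystroglycan sugar chain, and -0.32 for Trim72, a membrane repair protein. Bgn was close to 0 in both genotypes, at -0.10 in WT and 0.07 in Fgf21KO. Total counts alone shifted denervation ratios upward in both genotypes. Under that scaling the negative ratios of Bgn, Etv5, Pomk and Trim72 turned positive as well. Of these 6 genes, only Agrn kept opposite signs. Agrn, Pomk and Trim72 are named here after their values were seen.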

How the results depend on the processing

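No paired analysis was possible because there is a single library for each group and no replicate number to pair. The genotype term of the additive model already sets each denervated pool against the sham pool of its genotype, and leaving out any library leaves the additive model without a residual degree of freedom. With the deposited log2 values, the genes 2-fold apart numbered 1188 for denervation in WT and 1117 in Fgf21KO, and 29 between the sham and 25 between the denervated libraries. With the minimum mean count raised to 50, where fewer genes were tested, the last pair of numbers was 68 and 46. Genes past both thresholds for genotype numbered 15 at that filter and 13 with DESeq2's Wald test, against 23. Without the fold threshold 7003 genes passed for denervation, 5 of the 7 genes of the complex among them, and 88 for genotype. With total counts, with or without the 15 mitochondrially encoded genes, 1 gene of the complex, Sntb1, was 2-fold apart in KD vs KS. With all genes in the total, 1 passed both thresholds for denervation. Sgcb turned to a denervation log2 fold change of 0.27 with total counts and 0.10 without those 15 genes (adjusted p = 0.229). Dag1 (-0.14), Utrn (0.38) and Sgcb (0.27) changed sides of the threshold with total counts, and Dtna with the Wald test. The calls of Dmd, Sgcd and Sntb1 for denervation held under every alternative run. The Utrn difference between genotypes ran from 0.59 to 0.68 over its alternatives. Of the remaining results, 499 moved by less than their counting error or kept their call, and 110 values moved by more. A further 2 were reversed, 2 were weaker and 1 was stronger. With 134 counts in WS, Sntb1 carried the widest intervals.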
